A study of Homo sapiens with 14 samples.

Results

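The genes described here are 10 components of the fibrous extracellular matrix: the small leucine-rich proteoglycans BGN, DCN and LUM, the fibrillar collagen chains COL1A1, COL1A2, COL3A1 and COL5A1, and the matrix glycoproteins FN1, THBS2 and POSTN. They are 10 of the 28031 genes with at least 1 read in the bulk RNA-seq libraries. The set was built around BGN, which was chosen for its high level in foregut cells whose LTR5 elements were repressed, and the other 9 were added as matrix genes that mesenchymal cells share with it. BGN was thus chosen by its counts-per-million of gene reads (CPM) in control and LTR5-repressed foregut, and the members' values in that contrast are given as a description without a test.

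The fibrous matrix is a mesh of collagen fibrils and fibronectin that mesenchymal cells and fibroblasts lay down around themselves. Type I collagen is a trimer of the COL1A1 and COL1A2 chains, type III and type V collagens assemble into the same fibrils, and biglycan, decorin and lumican bind the fibrils and control their growth. In the early embryo, fibronectin is laid down by mesendoderm and mesoderm during gastrulation, well before an organised collagen stroma exists.

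All cells are labelled H9, a human embryonic stem cell (hESC) line, although the foregut culture notes also name H1. Bulk RNA-seq covered undifferentiated hESC (2 libraries), definitive endoderm after 3 days with Activin A at 100 ng/ml and the GSK-3 inhibitor CHIR-99021 at 5 and then 0.5 μM, from hESC carrying the repressor fusion dCAS9-KRAB with no guide (DE_ctl, 3 libraries) or with a guide RNA against LTR5 (DE_CRISPRi, 3 libraries), and the 2 matching conditions after 3 further days of foregut differentiation by a commercial pancreatic protocol (FG_ctl and FG_CRISPRi, 2 libraries each). LTR5 elements are the long terminal repeats of the endogenous retrovirus HERVK, and CRISPRi is their repression by dCAS9-KRAB. Gastruloids, elongated embryoid bodies made with CHIR-99021 at 3 μM from 800 cells per well and harvested at 72 h, were profiled as 1 preparation of single nuclei for RNA (UMIs, that is, individual transcript molecules) and for open chromatin.

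The hESC label names no dCAS9-KRAB, so endoderm differentiation and the repressor cannot be told apart in that comparison. For the foregut libraries the titles give the group, while their status labels read hESC for FG_ctl and a repressor without guide for FG_CRISPRi. The titles were used, and reads over LTR5B integrants stood at 12.4 and 9.29 CPM of gene reads in FG_ctl against 5.59 and 4.28 CPM in FG_CRISPRi. Reads over the other LTR5 subfamilies were not lower in both FG_CRISPRi libraries, at 9.10 and 8.75 CPM in FG_ctl against 4.43 and 10.9 CPM for LTR5_Hs, and 54.5 and 57.6 against 59.5 and 62.9 CPM for LTR5A. Depth was 11583063 to 37152434 gene reads per library, so that 3 reads, taken as the detection floor, equal 0.081 to 0.26 CPM. Mitochondrial transcripts took 8.30 to 34.7% of gene reads, with 29.0 and 17.6% in FG_ctl against 34.7 and 22.4% in FG_CRISPRi. The liver and foregut genes HNF4A, TTR and APOA1 were read in every foregut library, at 18.4 to 32.1, 1453 to 2050 and 477 to 801 CPM. The same libraries carried endothelial CDH5 at 28.2 to 52.4 CPM. Of the cardiac and muscle markers, ACTC1 was at 39.1 to 179 CPM, and at 11.9 and 12.0 CPM in hESC. MYL7 was at 21.9 to 64.1, DES at 31.8 to 50.8 and TNNT2 at 3.77 to 8.27 CPM in foregut. NKX2-5 and MYH6 did not pass 0.15 and 1.21 CPM there. In bulk libraries, fewer cells of a type and less RNA per cell cannot be told apart. In endoderm, replicate 1 of each group stood apart from the other two. The chi-square per degree of freedom between counts was 74.7 and 65.0 for DE_ctl replicate 1 against 9.32 between replicates 2 and 3, and 63.7 and 65.9 for DE_CRISPRi replicate 1 against 20.3. Without DE_ctl replicate 1, 5 members were called higher and 2 lower in endoderm against hESC, and BGN with the guide in endoderm was at log2 -0.31, or -0.63 without DE_CRISPRi replicate 1.

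BGN (X:152760438-152775004 in GRCh37) encodes biglycan. Its promoter is shown with those of 3 other members because the 4 differ in base composition and in whether the site was open in gastruloids. The sequences are the 250 bases before the RefSeq start site (GRCh38.p14), 5′ to 3′ on the gene's strand, with capitals marking matches on either strand to 4 motifs. These were the GC box with the letters GGGCGG, the TATA box of core promoters, whose letters are TATAAA, the AP-1 site, which is TGANTCA, and the GATA site, bound by zinc finger factors of endoderm and blood, which reads AGATAA.
BGN: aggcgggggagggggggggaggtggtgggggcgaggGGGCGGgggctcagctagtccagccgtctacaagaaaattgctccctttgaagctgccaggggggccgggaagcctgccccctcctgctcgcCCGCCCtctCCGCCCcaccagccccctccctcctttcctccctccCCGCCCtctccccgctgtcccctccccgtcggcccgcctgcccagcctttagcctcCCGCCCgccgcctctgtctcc
FN1: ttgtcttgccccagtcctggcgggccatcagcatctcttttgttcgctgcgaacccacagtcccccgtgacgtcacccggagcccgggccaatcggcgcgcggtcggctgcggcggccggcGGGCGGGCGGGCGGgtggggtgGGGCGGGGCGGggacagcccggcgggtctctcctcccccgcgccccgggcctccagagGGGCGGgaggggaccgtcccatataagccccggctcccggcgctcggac
THBS2: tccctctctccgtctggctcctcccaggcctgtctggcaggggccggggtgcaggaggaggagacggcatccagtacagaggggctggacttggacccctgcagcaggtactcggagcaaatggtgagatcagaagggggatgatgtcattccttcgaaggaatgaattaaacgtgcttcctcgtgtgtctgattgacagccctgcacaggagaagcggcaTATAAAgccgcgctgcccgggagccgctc
POSTN: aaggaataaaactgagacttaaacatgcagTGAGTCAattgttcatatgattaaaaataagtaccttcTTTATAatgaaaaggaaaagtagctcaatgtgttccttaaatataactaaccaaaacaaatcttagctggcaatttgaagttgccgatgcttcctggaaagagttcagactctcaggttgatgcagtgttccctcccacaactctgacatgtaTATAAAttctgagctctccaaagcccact
The windows are at chrX:153494730-153494979 (plus strand) for BGN, chr2:215436069-215436318 (minus) for FN1, chr6:169253847-169254096 (minus) for THBS2 and chr13:37598769-37599018 (minus) for POSTN.

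BGN held 5 GC boxes and FN1 6, of which several overlap one another, and neither held an exact TATAAA match. Only exact letters were searched, and FN1 holds tataag, which differs in the last base, close to its start site. THBS2 and POSTN each held a TATA box starting 29 bases before the start site, and POSTN held a second one and an AP-1 site. Of 27305 such promoters, 42.3% held a GC box, 11.1% a TATA box, 6.60% an AP-1 site and 9.37% a GATA site. No GATA site was found in the 4. An E-box (CANNTG), not capitalised here, was matched once in THBS2 and at 2 places in POSTN, against 62.2% of all promoters. Guanine and cytosine made up 74.0% of the BGN window, 76.4% of FN1, 60.0% of THBS2 and 36.4% of POSTN. COL5A1, the only other member in that promoter table, held 2 GC boxes at 74.0%.

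In gastruloid nuclei an ATAC peak overlapped the window from 250 bases before to 50 after the start of 7 of the 10 members, beside 70.5% of 18724 protein-coding genes. The 3 without one were DCN, whose nearest peak lay 589 bases away, COL1A1 at 622 bases, and POSTN at 41473 bases with no peak in its gene body. COL5A1 carried 25 peaks over its 203.0 kb, and BGN 3 over 14.6 kb.

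None of the 9 members other than COL5A1 overlapped an LTR5 integrant. An LTR5_Hs copy lay in an intron of COL5A1 (9:137606781-137607741, GRCh37) and another 92.2 kb from THBS2 (6:169746380-169747341), and neither collected a read in the 12 libraries. The closest LTR5 copy to BGN, an LTR5A, was 974.4 kb away, the closest LTR5B 1041.9 kb and the closest LTR5_Hs 1461.4 kb. Within 100 kb, 2 of 10 members had a copy, beside 14.1% of 19475 protein-coding genes, with LTR5_Hs, LTR5B and LTR5A counted together.

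BGN had the highest ratio of its highest to its lowest level among the 5 members read in every library, at 4.74 to 989 CPM. It stood at 6.12 and 4.74 CPM in hESC, at 48.7, 37.4 and 40.0 CPM in DE_ctl and at 35.6, 27.5 and 28.0 CPM in DE_CRISPRi. In foregut it reached 110 and 252 CPM in FG_ctl and 989 and 601 CPM in FG_CRISPRi. The 5 groups did not overlap one another, and the lowest FG_CRISPRi library lay above the highest FG_ctl library.

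**Figure D1:**
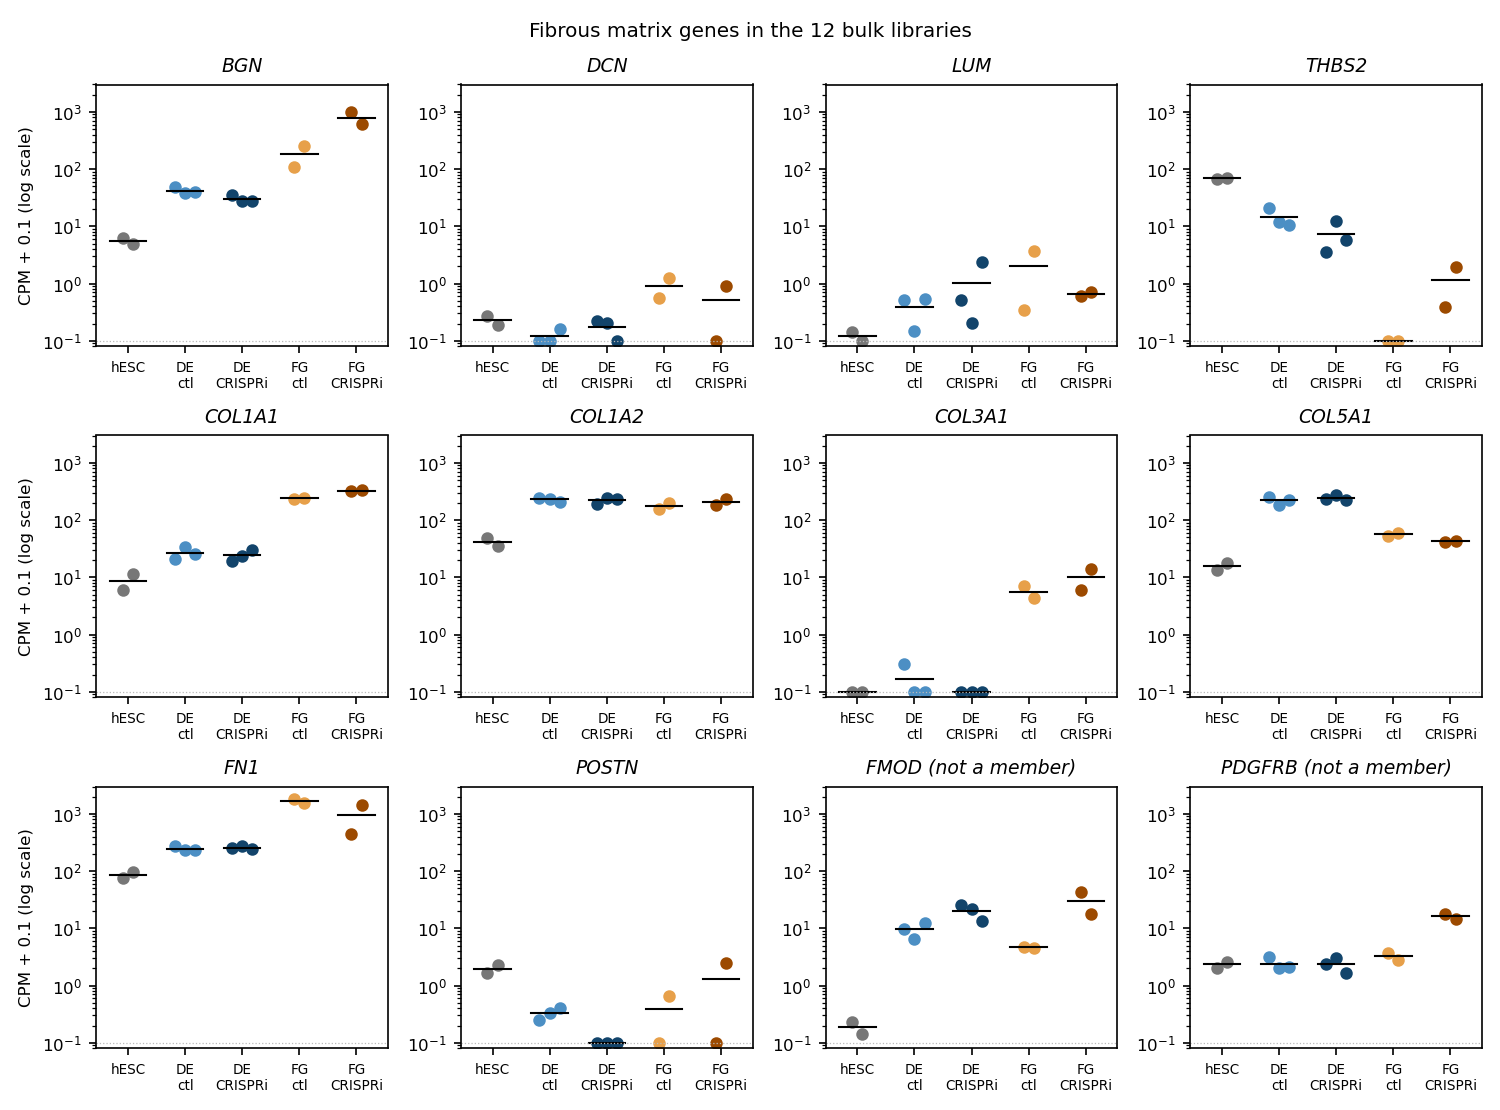
CPM plus 0.1, on a log scale, of the 10 members and of FMOD and PDGFRB in each bulk library; points are libraries, bars are group means, and a dotted line marks 0 reads. BGN climbs from 4.74 CPM in hESC to 989 CPM in foregut with the LTR5 guide, whereas DCN, LUM and POSTN stay under 4 CPM in every library.

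FN1, fibronectin, was read at 74.3 and 98.1 CPM in hESC, at 275, 229 and 229 CPM in DE_ctl and at 257, 270 and 243 CPM in DE_CRISPRi. In FG_ctl it reached 1829 and 1546 CPM. The FG_CRISPRi libraries disagreed, at 447 and 1442 CPM, and both were under the controls.

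COL1A1, the type I collagen alpha 1 chain, went from 5.90 and 11.4 CPM in hESC to 21.0, 33.3 and 25.5 CPM in DE_ctl and 19.0, 23.5 and 30.1 CPM in DE_CRISPRi. In foregut it was at 232 and 245 CPM in FG_ctl and 315 and 334 CPM in FG_CRISPRi, the latter pair higher without overlap. Its partner chain COL1A2 followed another course. It was at 47.7 and 35.6 CPM in hESC, 243, 235 and 209 CPM in DE_ctl and 193, 244 and 232 CPM in DE_CRISPRi, and stayed near that level at 156 and 199 CPM in FG_ctl and 181 and 231 CPM in FG_CRISPRi.

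COL5A1, a type V chain that sets fibril diameter, peaked in endoderm. It was at 13.3 and 17.4 CPM in hESC, 253, 182 and 225 CPM in DE_ctl and 232, 278 and 228 CPM in DE_CRISPRi, then at 52.0 and 60.1 CPM in FG_ctl and 42.0 and 42.6 CPM in FG_CRISPRi. COL3A1, the type III chain, was read mainly in foregut among the bulk libraries. It had no read in hESC or DE_CRISPRi and 4 reads in 1 DE_ctl library, against 6.83 and 4.23 CPM in FG_ctl and 5.97 and 13.7 CPM in FG_CRISPRi.

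THBS2, thrombospondin 2, was highest in hESC at 67.3 and 70.4 CPM, lower in DE_ctl at 20.6, 11.8 and 10.4 CPM and in DE_CRISPRi at 3.48, 12.2 and 5.61 CPM, and had no read in either FG_ctl library. The FG_CRISPRi libraries held 9 and 38 reads, that is 0.28 and 1.83 CPM.

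The 3 remaining members were close to the floor. POSTN, periostin, was at 1.57 and 2.17 CPM in hESC, had 3, 5 and 5 reads in DE_ctl and none in DE_CRISPRi, and in foregut was read in replicate 2 of each group, at 0.57 and 2.40 CPM, and at 0 in both replicates 1. LUM, lumican, did not pass 0.43 CPM in hESC or DE_ctl, reached 2.24 CPM in 1 DE_CRISPRi library, and was at 0.25 and 3.61 CPM in FG_ctl and 0.50 and 0.62 CPM in FG_CRISPRi. DCN, decorin, had 3 or fewer reads in 8 of the 12 libraries and its highest value, 1.16 CPM, in an FG_ctl library. Over all 12 libraries DCN summed to 86 reads and LUM to 223, beside 61104 for BGN of the same protein family.

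Per kilobase of exon, the order of the members changed with stage. In hESC it was led by THBS2 at 9.57 ± 0.31 CPM per kb (SD, n = 2), then FN1 at 5.01 ± 0.98 and COL1A2 at 3.85 ± 0.79, and the last 2 did not differ beyond their SDs. In DE_ctl COL1A2 at 21.2 ± 1.64, COL5A1 at 19.7 ± 3.19, BGN at 17.5 ± 2.47 and FN1 at 14.2 ± 1.57 CPM per kb (SD, n = 3) followed in that order, and no neighbours differed beyond their SDs. COL1A1 came next at 2.96 ± 0.69. In FG_ctl FN1 at 98.0 ± 11.7 and BGN at 75.3 ± 41.8 CPM per kb (SD, n = 2) led without separating, above COL1A1 at 26.5 ± 1.05 and COL1A2 at 16.4 ± 2.83. In FG_CRISPRi BGN led at 331 ± 114 CPM per kb, ahead of FN1 at 54.9 ± 40.9 and COL1A1 at 36.1 ± 1.497. Dividing by the longest transcript instead of all exons gave the same order in hESC, FG_ctl and FG_CRISPRi, and placed FN1 above COL5A1 and BGN in DE_ctl at 26.6 against 26.1 and 17.9 CPM per kb.

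Control endoderm was compared with hESC to ask how the matrix set behaved on leaving pluripotency. Of the 10 members 5 rose, 2 fell and 3 passed neither way, where passing means an adjusted p under 0.05 over all genes and a fold over 2 in edgeR's quasi-likelihood test. The background was 26.0% of 20818 genes tested, 14.2% higher and 11.8% lower. COL5A1 rose 15.1-fold (log2 3.92 ± 0.23 SE, adjusted p = 6.10e-09) and BGN 8.07-fold (log2 3.01 ± 0.25, adjusted p = 1.98e-07), with every endoderm library above every hESC library. COL1A2 rose by log2 2.52 ± 0.22 (adjusted p = 3.04e-07), COL1A1 by log2 1.71 ± 0.28 (adjusted p = 1.83e-04) and FN1 by log2 1.58 ± 0.19 (adjusted p = 1.05e-05). THBS2 fell 4.60-fold (adjusted p = 4.75e-06) and POSTN 7.63-fold (adjusted p = 2.31e-04). The POSTN call was lost when all 12 libraries entered 1 fit. The median log2 fold change of the members was 2.12, beside 0.045 over all genes tested.

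The other matrix genes leaned the same way. Of 99 genes in 7 lists (proteoglycans, collagens, glycoproteins, collagen processing, receptors, proteases, TGF-beta), 89 were tested, of which 39 rose and 7 fell, with a median log2 fold change of 0.87. The elastic fibre protein gene MFAP4 rose from 3.22 ± 0.47 to 151 ± 36.5 CPM (SD, n = 2 and 3, log2 5.62 ± 0.28 SE, adjusted p = 1.01e-09). FMOD, which encodes fibromodulin, a relative of biglycan, rose by log2 6.74 ± 0.54 (adjusted p = 1.22e-07) from 0.13 and 0.044 CPM to 9.71, 6.45 and 12.2 CPM. PRELP, of the same family, had no read in hESC and 1.32, 4.36 and 4.76 CPM in DE_ctl, at least 26.8-fold higher against 3 reads per library (adjusted p = 1.36e-05). The 3 largest falls with non-overlapping groups and a mean of at least 1 CPM over the libraries were ITGA2, a collagen-binding integrin chain (log2 -2.86 ± 0.51, adjusted p = 3.59e-04), MMP16, a membrane metalloprotease (log2 -2.56 ± 0.25, adjusted p = 1.13e-06), and COL14A1, a fibril-associated collagen (log2 -2.33 ± 0.31, adjusted p = 2.30e-05). The ITGA2 call was lost with all 12 libraries in 1 fit (adjusted p = 0.114). TGFB2, a TGF-beta ligand below that mean and named after its values were seen, fell by more (log2 -3.09 ± 0.62, adjusted p = 9.67e-04). Collagen synthesis genes gave 9 rises of 20 tested and no fall.

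**Figure D2:**
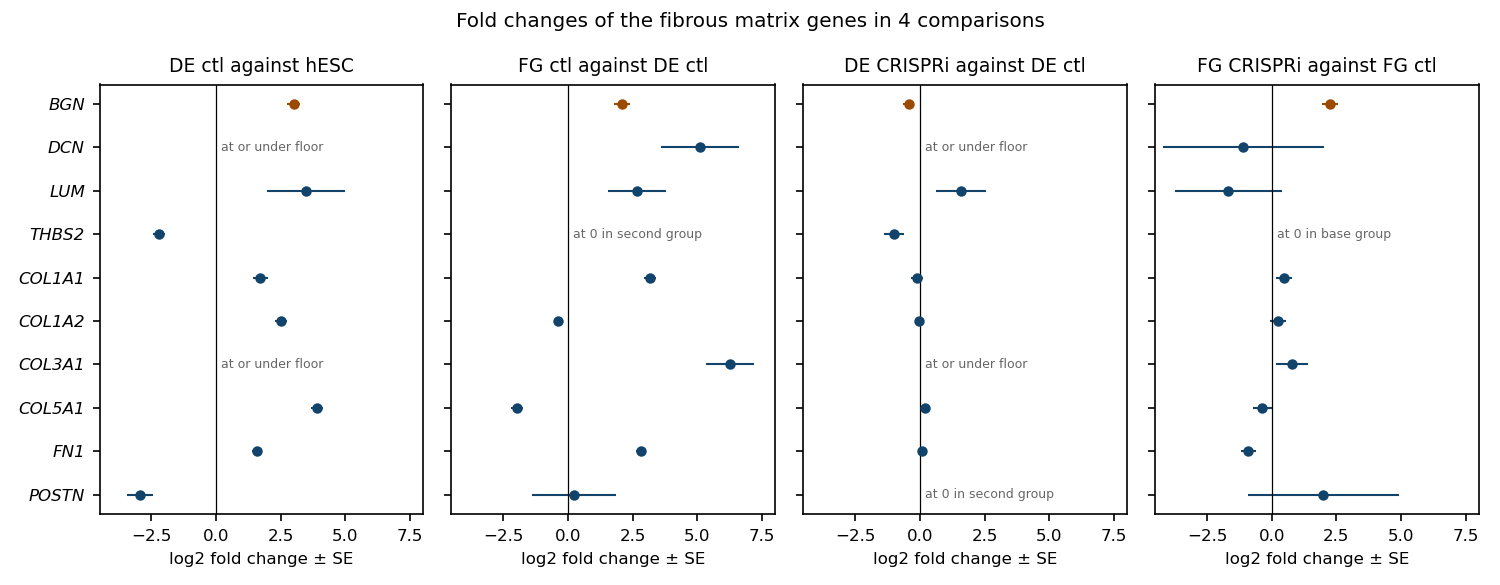
Fitted log2 fold change ± SE of each member in 4 comparisons, with text in place of a point where 1 group had no read or both were at or under 3 reads. BGN (orange) lies right of 0 in both stage comparisons and in foregut with the LTR5 guide, and left of 0, at -0.43, in endoderm with the guide.

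Control foregut was then set against control endoderm. The contrast uses the FG_ctl libraries on which BGN was chosen, so no p is given for BGN, whose fitted difference was log2 2.09 ± 0.30, and stage and any difference in preparation cannot be told apart. Of the other 9 members 4 rose and 2 fell, beside 29.0% of 21466 genes (14.1% higher, 15.0% lower). COL3A1 rose by log2 6.26 ± 0.92 (adjusted p = 9.36e-04), COL1A1 by log2 3.17 ± 0.24 (adjusted p = 2.78e-05) and FN1 by log2 2.81 ± 0.19 (adjusted p = 1.68e-05). DCN rose from 0 to 1 read per library to 15 and 43 reads (log2 5.11 ± 1.503, adjusted p = 0.0279), a call lost on leaving out DE_ctl replicate 1 (adjusted p = 0.104) or replicate 2 (adjusted p = 0.119). COL5A1 fell 3.92-fold (adjusted p = 2.23e-04), and THBS2 fell to no read, at least 165-fold lower against 3 reads per library (adjusted p = 4.69e-05). COL1A2 did not pass, at log2 -0.37 ± 0.19 (adjusted p = 0.157), nor did LUM or POSTN.

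The wider matrix lists were split here. Of 91 genes tested 25 rose and 18 fell, with a median of 0.13 beside -0.091 over all genes. The largest rises were TGFB2, a TGF-beta ligand (0.14 ± 0.091 to 105 ± 8.89 CPM, adjusted p = 1.98e-06), COL12A1, a fibril-associated collagen (0.11 ± 0.12 to 6.54 ± 0.42 CPM, adjusted p = 3.38e-04), and COL2A1, the cartilage and notochord collagen (12.4 ± 2.00 to 615 ± 24.6 CPM, adjusted p = 1.93e-06; SD, n = 3 and 2). The largest falls were MFAP4 (to 0.31 ± 0.093 CPM, adjusted p = 2.32e-06), COL5A2, the partner of COL5A1 in type V collagen (506 ± 64.8 to 24.2 ± 5.47 CPM, adjusted p = 6.37e-06), and LOX (31.4 ± 15.8 to 3.35 ± 0.10 CPM, adjusted p = 5.55e-04). The type V chains COL5A1 and COL5A2 thus both fell while COL1A1, COL3A1 and COL2A1 rose.

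Repression of LTR5 in endoderm left the members without a call. The values BGN was chosen on did not include these libraries, though the members were chosen with earlier results of these data known. Of 9 members tested (DCN was under the read minimum) 0 passed in either direction by edgeR, and 0 by DESeq2 or limma voom, beside 0.0343% of 20407 genes (0.00490% higher, 0.0294% lower). At an unadjusted p under 0.05 there were 2, THBS2 and POSTN, beside 5.18% of all genes, or 2.70% with a fold over 2 as well. Groups did not overlap for 2 members that were lower, BGN and POSTN, beside 5.50% of genes, and for none that was higher, beside 4.65%. BGN was lower in all 3 DE_CRISPRi libraries than in all 3 controls (log2 -0.43 ± 0.20, unadjusted p = 0.0544, adjusted p = 0.971), a difference that did not pass. THBS2 differed by log2 -0.995 ± 0.37 (adjusted p = 0.763) with overlapping libraries. COL1A1, COL1A2, COL5A1 and FN1 differed by log2 -0.12 ± 0.23, -0.017 ± 0.16, 0.18 ± 0.18 and 0.10 ± 0.17, each with overlap. Without the minimum on reads THBS2 passed (adjusted p = 0.0246). Of 87 other matrix genes 0 passed and 9 reached an unadjusted p under 0.05. FMOD was among these, at 25.3, 21.4 and 13.2 CPM with the guide against 9.71, 6.45 and 12.2 CPM (log2 1.12 ± 0.30, adjusted p = 0.428).

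In LTR5-repressed foregut the question was whether the higher BGN came with the rest of the set. BGN was 4.72-fold higher in FG_CRISPRi by the fit (log2 2.24 ± 0.31), and between 1.62 and 2.85 on the log2 scale with any 1 library left out. BGN was chosen on these values, so its lack of overlap is left out of the counts that follow. Of the other 9 members, 2 were higher without overlap, beside 9.71% of 20044 genes, and 2 lower, beside 16.0%. The higher ones were COL1A1 at log2 0.47 ± 0.30 and THBS2. THBS2 was at least 12.2-fold higher against a floor of 3 reads per control library, or 3.27-fold without FG_CRISPRi replicate 2. The lower ones were FN1 at log2 -0.90 ± 0.28 and COL5A1 at log2 -0.37 ± 0.36.

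FN1 rested on 1 library. Its fitted difference was log2 -0.38 without FG_CRISPRi replicate 1 and -1.73 without FG_CRISPRi replicate 2. COL1A2 (log2 0.24 ± 0.31) and COL3A1 (log2 0.78 ± 0.61) overlapped between groups. DCN, LUM and POSTN overlapped too, with SEs of 3.10, 2.06 and 2.92 on the log2 scale, so no difference was detectable at their depth. The members' median was log2 0.36 beside -0.060 over all genes tested, and without a test this is a description only.

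**Figure D3:**
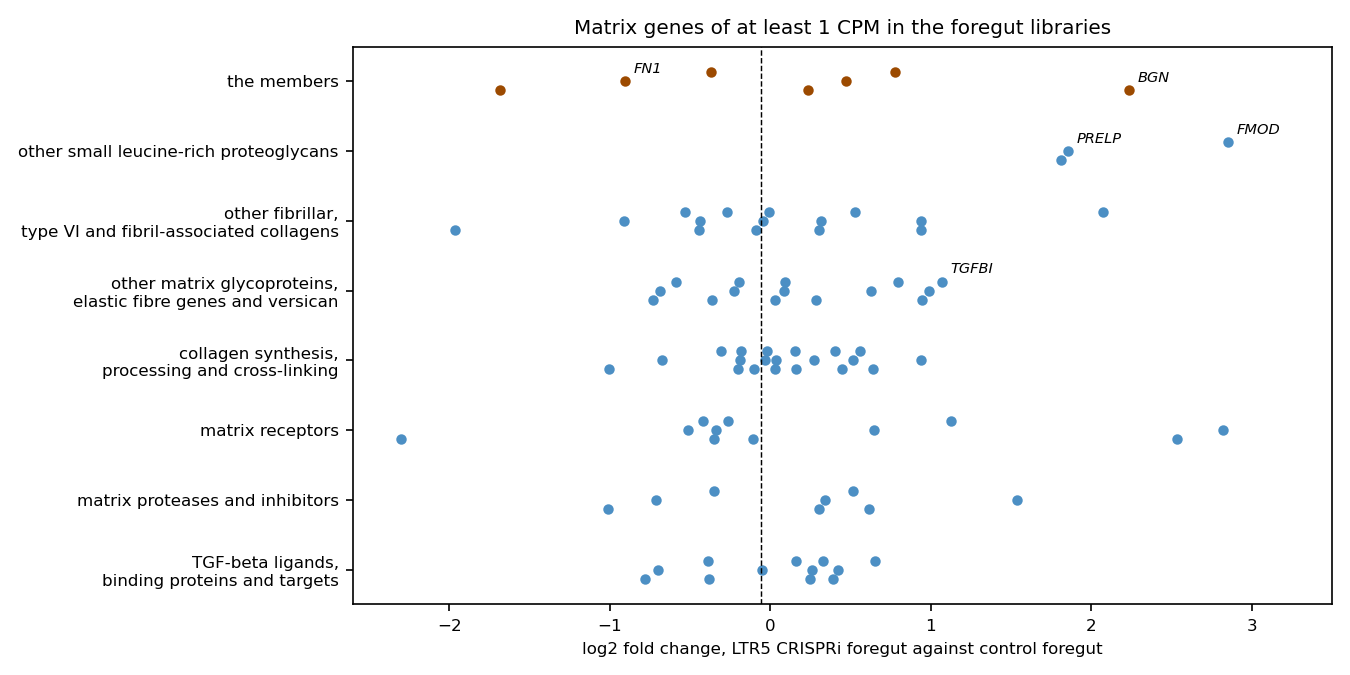
Log2 fold change of LTR5-repressed against control foregut for members (orange) and other matrix genes (blue) by list, for genes averaging at least 1 CPM over the 4 libraries and with reads in both groups; the dashed line is the median of all genes tested. BGN lies at 2.24, FMOD at 2.85 and the integrin chain ITGA10, which did not pass, at 2.82, while collagens and processing genes spread to both sides of the line.

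Among the 91 other matrix genes tested in this contrast, FMOD was the only one that passed. It stood at 4.60 and 4.44 CPM in FG_ctl and at 43.0 and 17.9 CPM in FG_CRISPRi (log2 2.85 ± 0.48, adjusted p = 3.02e-06), beside 0.165% of all genes called, 0.0499% higher and 0.115% lower. It was called under 13 of 14 alternative settings, with adjusted p from 9.41e-09 to 0.9997, the last with edgeR's filterByExpr. No other matrix gene passed, 9 of the 91 reached an unadjusted p under 0.05 (beside 3.49% of all genes, or 2.51% with a fold over 2 as well), and DESeq2 and limma voom also called FMOD alone. PRELP was at 1.29 and 3.02 CPM against 9.92 and 4.37 CPM (log2 1.86 ± 0.78, adjusted p = 0.9996), which did not pass. ASPN, OMD, KERA, OGN and EPYC, the remaining small leucine-rich proteoglycans apart from ECM2 and PODN, had no read in any foregut library. The 21 collagen processing genes had a median of log2 0.036 with none called, and the 15 other collagens tested a median of log2 -0.044 with none called. Without FG_CRISPRi replicate 1, 3 matrix genes (LTBP4, COL6A2 and ADAMTS3) were called lower, and without replicate 2 of that group, 2 (ITGAV and ITGA2).

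Of 24 mesenchymal markers 21 were tested, 1 was called, 6 were higher without overlap and 2 lower, beside 9.71% and 16.0% of all genes. The called gene was PDGFRB, the receptor that marks pericytes and stromal cells, at 3.62 and 2.64 CPM in FG_ctl and 17.9 and 14.2 CPM in FG_CRISPRi (log2 2.40 ± 0.57, adjusted p = 0.0163). TWIST1, SNAI2 and ZEB1, mesenchymal transcription factors, were at 2.07 to 4.08, 1.29 to 2.85 and 1.65 to 2.37 CPM in FG_ctl and at 5.48 to 12.6, 6.15 to 9.23 and 3.77 to 12.9 CPM in FG_CRISPRi, and did not pass. The lower ones were HAND1, a mesodermal transcription factor, at 0.31 and 0.996 CPM against no read, and NT5E, a surface enzyme used to mark mesenchymal stromal cells, at 1.04 and 2.099 against 0.69 and 0.62 CPM. PDGFRA (log2 -0.46 ± 0.38) and TAGLN (log2 -0.28 ± 0.29) overlapped between groups. The stromal factors PRRX1, TWIST2 and FOXF1 had no read in the 4 foregut libraries. The summed list ran from 2872 to 3317 CPM in FG_ctl and from 2146 to 4158 CPM in FG_CRISPRi. Most of that sum was VIM, at 2025 and 1988 CPM in FG_ctl and 1442 and 2818 CPM in FG_CRISPRi.

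Of 7 endothelial markers 5 were higher without overlap, including CDH5 and TIE1, beside 9.71% of all genes, and none was called (summed level 99.3 to 206 against 193 to 224 CPM). VWF, the von Willebrand factor gene, was lower without overlap, at 1.26 and 5.44 CPM against 0.38 and 0.096 CPM. Of 6 cardiac and muscle markers none was called, with NKX2-5 and MYH6 at 0 in FG_CRISPRi (161 to 252 against 107 to 302 CPM). Of 11 foregut markers 7 were lower without overlap, beside 16.0% of all genes, and PDX1, the pancreatic and duodenal factor, was called, at 25.5 and 25.9 CPM against 2.42 and 8.51 CPM (log2 -2.30 ± 0.49, adjusted p = 0.00218). The summed foregut list was 2647 to 3484 against 2595 to 2798 CPM, of which TTR held 1453 and 2050 against 1722 and 1644 CPM. The part of these marker differences in the BGN level was not tested.

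Over the 12 libraries the genes whose log2(CPM + 1) followed BGN most closely, among 14221 genes of at least 1 CPM on average, were FKBP1B (Pearson r = 0.975), CCDC191 (0.971), TIMP1 (0.970), TTLL1 (0.970) and ZBBX (0.967). These libraries share their stages and some their controls, so the values describe a profile only. TIMP1, a metalloprotease inhibitor on the matrix lists, ran from 30.3 and 28.1 CPM in hESC through 73.1 to 89.2 CPM in DE_ctl and 183 and 228 CPM in FG_ctl to 265 and 310 CPM in FG_CRISPRi. Of the members COL1A1 came closest to BGN, at r = 0.934 and place 89, followed by COL3A1 at 0.855 and FN1 at 0.803. COL5A1 was at 0.008, and THBS2 at -0.853.

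In gastruloid nuclei 8 of the 10 members had counts. THBS2 and POSTN were not analysed here, since the table lists genes with a UMI in at least 34 nuclei and neither is in it. After filtering, 3422 of 3646 nuclei with a median of 16302 UMIs were kept and grouped into 10 clusters without the members among the clustering genes. Intervals for nuclei are exact (95%) and cover counting error only, since there was 1 preparation. Levels are CPM of all UMIs summed over nuclei. Over all nuclei BGN was at 89.2 CPM (86.8 to 91.7, 5261 UMIs), FN1 at 743 (736 to 750), COL1A2 at 314 (309 to 318), COL5A1 at 48.7 (47.0 to 50.5), COL3A1 at 12.7 (11.8 to 13.7), COL1A1 at 5.31 (4.74 to 5.93), LUM at 1.83 (1.503 to 2.21) and DCN at 0.95 (0.72 to 1.23). With nuclei thinned to 5000 UMIs (3197 nuclei), a BGN UMI was found in 26.5% of them (24.9 to 28.0%), and in 48.5% unthinned. The share was 60.1% for COL1A2, 63.3% for FN1 and 0.688% for DCN.

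In the main clustering BGN and FN1 were highest in the same clusters, 1 and then 0. At resolution 0.8 a cluster of 32 nuclei was still highest for both, but the next highest differed. It was a cluster of 75 nuclei for BGN (309 CPM, FN1 at 1395) and of 435 nuclei for FN1 (2592 CPM, BGN at 165). Both of these shared most nuclei with cluster 0 of the main clustering. Cluster 0 (496 nuclei) had raised levels of 7 of 7 axial mesoderm markers, among them SHH, NOTO and CHRD, and is called axial mesoderm-like. It held BGN at 179 CPM (171 to 187) and FN1 at 2368 (2339 to 2397). Cluster 1, only 34 nuclei led by DCDC2, KLHL14 and XACT, with APOB and APELA among its top 10 genes, and left unnamed, held BGN at 443 (398 to 491) and FN1 at 10890 (10670 to 11120). BGN was lowest in cluster 8 (418 nuclei with SOX2, NKX1-2, CDX2 and FGF8), at 20.1 (17.0 to 23.6), and second lowest in the presomitic mesoderm-like cluster 9 (482 nuclei with TBX6 and MSGN1), at 32.2 (28.5 to 36.2). The second place changed with resolution. At 0.8 the cluster of 412 nuclei sharing most with cluster 3 held BGN at 26.7, against 35.8 in the match of cluster 9. After thinning, 50.5% of nuclei in cluster 0 and 8.18% in cluster 8 had a BGN UMI, with median depths of 20967 and 16863 UMIs. Free RNA was not estimated, so its part in the share of cluster 8 or of any other cluster is not known.

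The collagens were spread otherwise. COL1A2 was highest in cluster 2 (555 nuclei with PAX3, UNCX and MEOX2), at 684 (667 to 702), and lowest in cluster 8 at 37.8 (33.5 to 42.4), with 198 (189 to 206) in cluster 0. COL5A1 was likewise highest in cluster 2, at 77.3 (71.6 to 83.2), next to cluster 7 at 71.9 (64.8 to 79.5), with overlapping intervals. In cluster 0 COL3A1 had 3 UMIs over 496 nuclei. Nuclei with a BGN UMI after thinning had an FN1 UMI in 74.6% of cases, against 59.3% of nuclei without one. The shares were 63.7 against 58.7% for COL1A2 and 21.6 against 21.8% for COL5A1.

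LUM, COL3A1, DCN and COL1A1 had their highest levels in very few nuclei. Cluster 5 was 9 nuclei with raised levels of 8 of 20 mesenchymal markers, PDGFRB, TWIST1 and ACTA2 among them. In these 9 nuclei 3 UMIs equal 23.4 CPM, so a raised marker may rest on few UMIs. This cluster held 33 of the 108 LUM UMIs, 99 of 750 COL3A1 UMIs, 17 of 313 COL1A1 UMIs and 4 of 56 DCN UMIs. There COL3A1 reached 772 CPM (628 to 940) and LUM 258 (177 to 362), while BGN was at 54.6 (21.96 to 113) from 7 UMIs. These 9 nuclei did not separate at a clustering resolution of 0.3 or 0.8, or with the members among the clustering genes, and their median depth was 13688 UMIs.

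**Figure D4:**
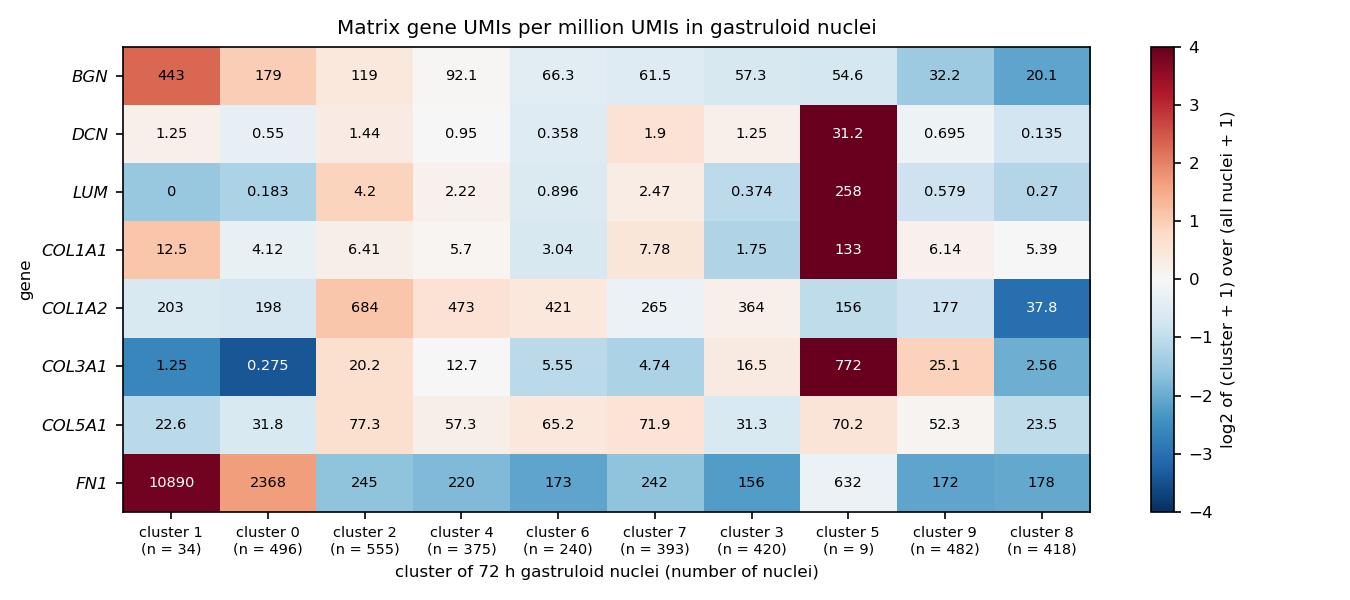
Level in CPM of UMIs (numbers) of 8 members in 10 clusters of gastruloid nuclei, ordered by BGN; colour is log2 of the cluster level plus 1 over the level in all nuclei plus 1, cut at -4 and 4. BGN and FN1 share clusters 1 and 0 at the left, COL1A2 peaks in cluster 2, and LUM, COL3A1, DCN and COL1A1 peak in the 9 nuclei of cluster 5.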

How the data were processed

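For bulk RNA-seq the authors aligned reads to hg19 with HISAT2 and deposited raw read counts per gene and per transposable element integrant. For gastruloids the authors used Cell Ranger on GRCh38 and deposited UMI counts per gene and nucleus and peak positions from the pooled preparation. Genes were named with GENCODE v44lift37 (GRCh37). PECAM1 was not analysed here. The members and gene lists were chosen with earlier results of these data known.

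CPM was computed from total gene reads. Comparisons used edgeR 4.0.16 (TMM, quasi-likelihood, genes with at least 3 reads in 1 sample), with Benjamini-Hochberg adjusted p over all genes tested, called under 0.05 with a fold over 2. DESeq2 1.42.0, limma 3.58.1 (voom), other scalings and filters, a replicate block and leave-one-out fits were alternatives. On simulated counts the test was checked against known changes. Named were all members, the 3 largest called rises and falls among other matrix genes per comparison (mean of at least 1 CPM, groups not overlapping), and the 5 genes closest to BGN. The methods of the study call its RNA-seq replicates biologically independent, while the labels only number them. The deposited peaks are positions without a signal. Marker genes and the other genes outside this rule were named after their values were seen.

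Nuclei under 1000 UMIs or 200 genes, or over 25% mitochondrial, were left out. Clusters came from scanpy 1.11.5 (Leiden, resolution 0.5, 30 components, 1994 variable genes without the members, a choice made after a first clustering was seen). The 72 called doublets (2.1%) were kept.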

Additional observations from a re-analysis of the deposited data

Results flagged for a closer look

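BGN differed in direction between tissues under the same guide. It was lower in all 3 LTR5-repressed endoderm libraries than in all 3 controls (log2 -0.43), which did not pass (adjusted p = 0.971 by edgeR). It was higher in both LTR5-repressed foregut libraries than in both controls (log2 2.24), the values on which it was chosen. The difference between tissues was not tested. TGFBI, a TGF-beta-induced matrix glycoprotein, showed the same pattern. It was at 8.12 to 8.91 CPM against 9.47 to 11.5 CPM in endoderm (log2 -0.26) and at 43.3 and 56.8 CPM against 23.7 and 24.4 CPM in foregut (log2 1.07). CCN1, a secreted matricellular protein, was at 4.74 to 5.53 CPM against 7.21 to 12.7 CPM in endoderm (log2 -0.92) and at 128 and 250 CPM against 120 and 117 CPM in foregut (log2 0.65). By edgeR both TGFBI and CCN1 reached an unadjusted p under 0.05 in foregut, and CCN1 also in endoderm. Neither passed in either tissue, and their difference between tissues was not tested. Of 12300 genes with at least 1 CPM in both tissues, 148 (1.2%) had groups without overlap in opposite directions. That share is no measure for BGN, since its foregut values were part of its choice. Bulk groups held 2 or 3 libraries, too few for a Dixon test of a library far from the rest.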

How the results depend on the processing

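Across the alternatives for counts of called genes, 218 of 229 values stayed within 1.5 times the reported count. Members called lower in endoderm against hESC went from 2 to 1 with all 12 libraries in 1 fit. In LTR5-repressed endoderm the 0 matrix genes called higher became 1 (FMOD) without a low-count filter or at an unadjusted p, and the 0 members called lower became 1 (THBS2 without the filter, POSTN at an unadjusted p). In foregut with the guide, matrix genes called higher went from 1 to 0 under filterByExpr, to 2 under a crossed replicate block (added after the data were seen because same-numbered libraries correlated at -0.21) and to 3 at an unadjusted p. Those called lower went from 0 to 1 at an unadjusted p and ranged from 0 to 3 with 1 library left out. Same-numbered libraries correlated at -0.0240, -0.0451 and 0.0086 in endoderm with and without the guide, at 0.033 and 0.053 in endoderm against hESC and at 0.179 and 0.148 in foregut against endoderm. With only 2 pairs there and no shared batch in the labels, the numbers were not taken as pairs. The replicate block gave 1 matrix gene called higher in foregut, FMOD, as without it, and the DCN call in foregut against endoderm was lost (adjusted p = 0.124). Among clusters of at least 50 nuclei, the highest for BGN held 206 CPM of UMIs at resolution 0.3 and 309 at 0.8, and that for FN1 2918 and 2592. At 0.3 this was the same cluster, of 540 nuclei. At 0.8 the clusters differed, with 75 nuclei for BGN (FN1 at 1395) and 435 nuclei for FN1 (BGN at 165). A smaller cluster at 0.8, of 32 nuclei, held more of both, with BGN at 450 and FN1 at 10880. The highest cluster of COL1A2 and COL5A1 held 782 and 93.0 at 0.8.

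Fold changes (log2) that turned sign were small or rested on few reads. With 1 library left out, those in endoderm with the guide ranged from -0.083 to 2.20 for LUM, from -0.28 to 0.060 for COL1A1 and from -0.051 to 0.030 for COL1A2 (0.030 without DE_CRISPRi replicate 1, 0.025 without DE_ctl replicate 1), and those in foregut against endoderm from -0.076 to 3.56 for LUM and from -5.35 to 1.21 for POSTN. In foregut with the guide LUM went from -1.69 to 1.13 without FG_ctl replicate 2, and POSTN from 1.99 to -6.15 without FG_CRISPRi replicate 2. POSTN in foregut against endoderm was also at -1.24 by limma voom and at -0.985 with the replicate block. The cause was not tested. The 5 genes closest to BGN were the same with a pseudocount of 0.1. The median log2 fold change of all genes moved from -0.060 to -0.26 in foregut with the guide without FG_CRISPRi replicate 1, and from -0.091 to -0.35 in foregut against endoderm without a low-count filter. Foregut comparisons rest on 2 libraries a group, and DCN, LUM and POSTN on few reads.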
